A study of Mus musculus with 18 samples.

Results

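The genes described here are 9 components and regulators of the complement system, chosen by name from the 78239 genes counted in each experiment. They are *C1qa*, *C1qb* and *C1qc*, which encode the 3 chains of C1q, the serine protease genes *C1ra* and *C1s1*, the central components *C4b* and *C3*, complement factor B (*Cfb*), and *Serping1*, which encodes the C1 inhibitor. RNA was sequenced from whole mouse retinas 3 weeks post injection (wpi) of an adeno-associated virus under the retina, given at postnatal day 29 to 32, and from 661W cells 20 h after plasmid transfection. The virus carried the mouse opsin promoter, which is active in rods, in front of either *nsHif1a* or eGFP, and reached a part of the retina only. *nsHif1a* encodes a Myc-tagged mouse HIF1A altered to remain stable and active at normal oxygen. Both groups of retinas (AAV::*nsHif1a* and AAV::eGFP, 5 libraries each) were therefore injected, and no uninjected retina is part of the comparison. The labels give the mice as C57BL/6J, whereas the study's methods name wild-type mice of another strain, 129S6. 661W is a mouse cell line described as photoreceptor-like. Its plasmids drove *nsHif1a* or eGFP from the CMV promoter, which is active in most cell types, with 4 libraries per group. Libraries are named by group and by the number in their label. Nothing in the labels states whether libraries of a group came from separate animals or cultures, so p-values measure the spread between these libraries.

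Complement is a cascade of plasma and tissue proteins that marks cells, debris and synapses for removal. In the classical pathway, C1q binds a target and activates C1r and then C1s, which cleaves C4 and C2, and the product cleaves C3. Factor B joins fragments of C3 in the alternative pathway, which amplifies the deposition of C3. C1 inhibitor blocks C1r and C1s. In the retina, microglia are the main known source of C1q, whereas glia, pigment epithelium and infiltrating cells can make C3, C4 and C1 inhibitor.

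In whole retinas at 3 wpi, none of the 9 genes passed the test for a difference between AAV::*nsHif1a* and AAV::eGFP. *C1qa*, *C1qb* and *C1qc* had the highest estimates, each 1.21 to 1.40 higher on the log2 scale, and passed only before adjustment for multiple testing. For all 9 genes the libraries of both groups overlapped. The level of every gene differed between control libraries by more than it differed between group means, with AAV::eGFP library 2 highest in its group for all 9 genes and AAV::*nsHif1a* library 5 highest in the other. In 661W cells C1q was not detected, *C1ra* had the highest level per transcript length, and again none passed the test.

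The 3 C1q genes lie next to each other on the minus strand of chromosome 4 (GRCm39, gencode M39), with *C1qb* at chr4:136606009-136613511, *C1qc* at chr4:136616466-136620376 and *C1qa* at chr4:136623223-136626161. *C1ra* (chr6:124489364-124500402, plus strand) and *C1s1* (chr6:124507297-124559389, minus strand) are neighbours on chromosome 6. *C4b* (chr17:34947354-34962912), *Cfb* (chr17:35074852-35081559) and *C3* (chr17:57510964-57535155) are on the minus strand of chromosome 17. *Serping1* (chr2:84595705-84620873, minus strand) is on chromosome 2. The promoters of the C1q genes and of *C1s1*, *C1ra* and *C3* are shown. The C1q genes kept nearly constant proportions between retinas, as given below. *C1s1*, *C1ra* and *C3* were highest in the same retinas, as were all the genes described here, and their windows alone held the C/EBP-like motif named below. Each line is the 250 bases before the start of the gene's canonical transcript in GRCm39, read 5′ to 3′ on the strand of the gene. Capitals mark matches to any of the motifs searched on both strands, which were the hypoxia response cores ACGTG and GCGTG, the STAT-type motif TTCNNNGAA, the C/EBP-like motif TTGCNNAA, the PU.1-type core GAGGAA and an interferon response element core.

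The windows are chr4:136626162-136626411 for *C1qa*, chr4:136613512-136613761 for *C1qb* and chr4:136620377-136620626 for *C1qc*:
C1qa: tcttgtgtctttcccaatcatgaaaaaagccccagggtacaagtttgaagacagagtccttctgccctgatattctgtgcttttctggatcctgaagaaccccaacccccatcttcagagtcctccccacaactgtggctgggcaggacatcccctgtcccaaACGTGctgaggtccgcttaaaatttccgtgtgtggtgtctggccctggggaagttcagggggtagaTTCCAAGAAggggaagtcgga
C1qb: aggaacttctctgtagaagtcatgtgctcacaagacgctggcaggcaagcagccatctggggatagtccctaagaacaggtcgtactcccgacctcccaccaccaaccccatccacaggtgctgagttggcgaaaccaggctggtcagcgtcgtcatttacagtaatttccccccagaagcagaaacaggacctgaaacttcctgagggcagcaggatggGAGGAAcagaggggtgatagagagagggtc
C1qc: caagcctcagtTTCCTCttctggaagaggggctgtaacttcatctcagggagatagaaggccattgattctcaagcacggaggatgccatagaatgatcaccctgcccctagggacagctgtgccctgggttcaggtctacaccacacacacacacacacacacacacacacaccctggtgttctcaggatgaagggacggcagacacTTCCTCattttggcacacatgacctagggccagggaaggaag

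The *C1qa* window held ACGTG 87 bases before the start and a STAT-type match 21 bases before it. The PU.1-type core was at 30 bases in *C1qb* and, on the opposite strand, at 239 and 42 bases in *C1qc*. No motif matched in all 3 windows.

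The windows are chr6:124519319-124519568 for *C1s1*, chr6:124489114-124489363 for *C1ra* and chr17:57535156-57535405 for *C3*:
C1s1: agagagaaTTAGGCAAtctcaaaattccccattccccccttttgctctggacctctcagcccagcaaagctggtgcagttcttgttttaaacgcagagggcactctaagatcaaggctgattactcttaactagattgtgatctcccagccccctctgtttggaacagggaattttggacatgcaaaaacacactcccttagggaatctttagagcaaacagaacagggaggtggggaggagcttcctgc
C1ra: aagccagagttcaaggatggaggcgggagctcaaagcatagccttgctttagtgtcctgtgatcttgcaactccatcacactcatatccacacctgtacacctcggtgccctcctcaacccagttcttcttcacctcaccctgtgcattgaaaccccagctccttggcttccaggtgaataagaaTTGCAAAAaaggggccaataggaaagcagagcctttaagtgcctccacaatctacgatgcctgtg
C3: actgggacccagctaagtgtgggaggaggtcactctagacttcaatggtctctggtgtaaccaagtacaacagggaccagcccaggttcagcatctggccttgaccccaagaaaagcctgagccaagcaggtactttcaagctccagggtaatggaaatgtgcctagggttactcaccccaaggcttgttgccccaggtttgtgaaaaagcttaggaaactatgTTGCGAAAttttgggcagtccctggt

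In these 3 windows the C/EBP-like motif was the one that matched, at 242 bases before the start on the opposite strand in *C1s1*, at 65 bases in *C1ra* and at 26 bases in *C3*. No other window of the 9 genes held this motif, so its match in all 3 windows shown is no test of enrichment. It matched in 9.34% of 21751 promoter windows of the same length. ACGTG matched in 17% of these windows, GCGTG in 31.2%, the STAT-type motif in 7.69%, the PU.1-type core in 22.9% and the interferon response element core in 3.32%. The interferon response element core matched in no window of the 9 genes, and the *Cfb* window held no match to any of the motifs. Among the remaining windows, *C4b* held ACGTG 19 bases before the start, in a palindrome that also matches on the opposite strand, and 4 matches to GCGTG, and *Serping1* held ACGTG at 248 bases and the PU.1-type core at 139 bases. A match is a description of the letters and not a measured binding site.

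Libraries held 12898220 to 16167522 counts in the retina and 13424326 to 17809585 in the cells, where 3 counts correspond to between 0.168 and 0.233 CPM, the unit of counts scaled to library size. This limit covers counting error only. In the cells *Hif1a*, which counts endogenous and transfected transcripts, was at 150 to 164 CPM with eGFP and at 1222 to 1954 CPM with *nsHif1a*. In the retina it was at 638 to 698 CPM in controls and at 642 to 729 CPM in AAV::*nsHif1a* retinas, so the groups overlapped and the targeted gene did not check the labels there. *Xist*, the RNA of the inactive X chromosome, was counted 19492 and 28595 times in AAV::eGFP libraries 1 and 2, 1 to 3 times in AAV::eGFP libraries 3 to 5, and 23301 to 27275 times in all 5 AAV::*nsHif1a* libraries. The comparison of the retinas therefore runs partly along this split. Counts on the γ-crystallin genes, markers of lens, made up 0.0634% to 0.280% of all counts in the controls and 0.0956% to 1.82% in AAV::*nsHif1a* retinas.

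*C1qa* was counted 198, 507, 82, 48 and 128 times in AAV::eGFP libraries 1 to 5 and 121, 388, 241, 482 and 556 times in AAV::*nsHif1a* libraries 1 to 5. *C1qb* was counted 170, 504, 70, 40 and 100 times with AAV::eGFP and 112, 411, 250, 379 and 539 times with AAV::*nsHif1a*. *C1qc* was counted 195, 514, 68, 48 and 101 times with AAV::eGFP and 122, 390, 253, 400 and 558 times with AAV::*nsHif1a*. The 3 genes ordered the libraries almost alike, with AAV::eGFP library 2 among the AAV::*nsHif1a* libraries and AAV::*nsHif1a* library 1 among the controls. Scaled to library size, *C1qa* was at 13.2 ± 11.9 CPM with AAV::eGFP and 23.8 ± 11.0 CPM with AAV::*nsHif1a* (SD, n = 5 each). *C1qb* was at 12.01 ± 12.1 and 22.5 ± 9.87 CPM, and *C1qc* at 12.6 ± 12.4 and 22.9 ± 10.02 CPM. The log2 fold changes were 1.21 (SE 0.50, 95% limits 0.12 and 2.31) for *C1qa*, 1.40 (SE 0.52, limits 0.27 and 2.54) for *C1qb* and 1.33 (SE 0.50, limits 0.24 and 2.42) for *C1qc*. Their adjusted p-values from limma were 0.18, 0.14 and 0.15, above the threshold of 0.05.

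**Figure D1:**
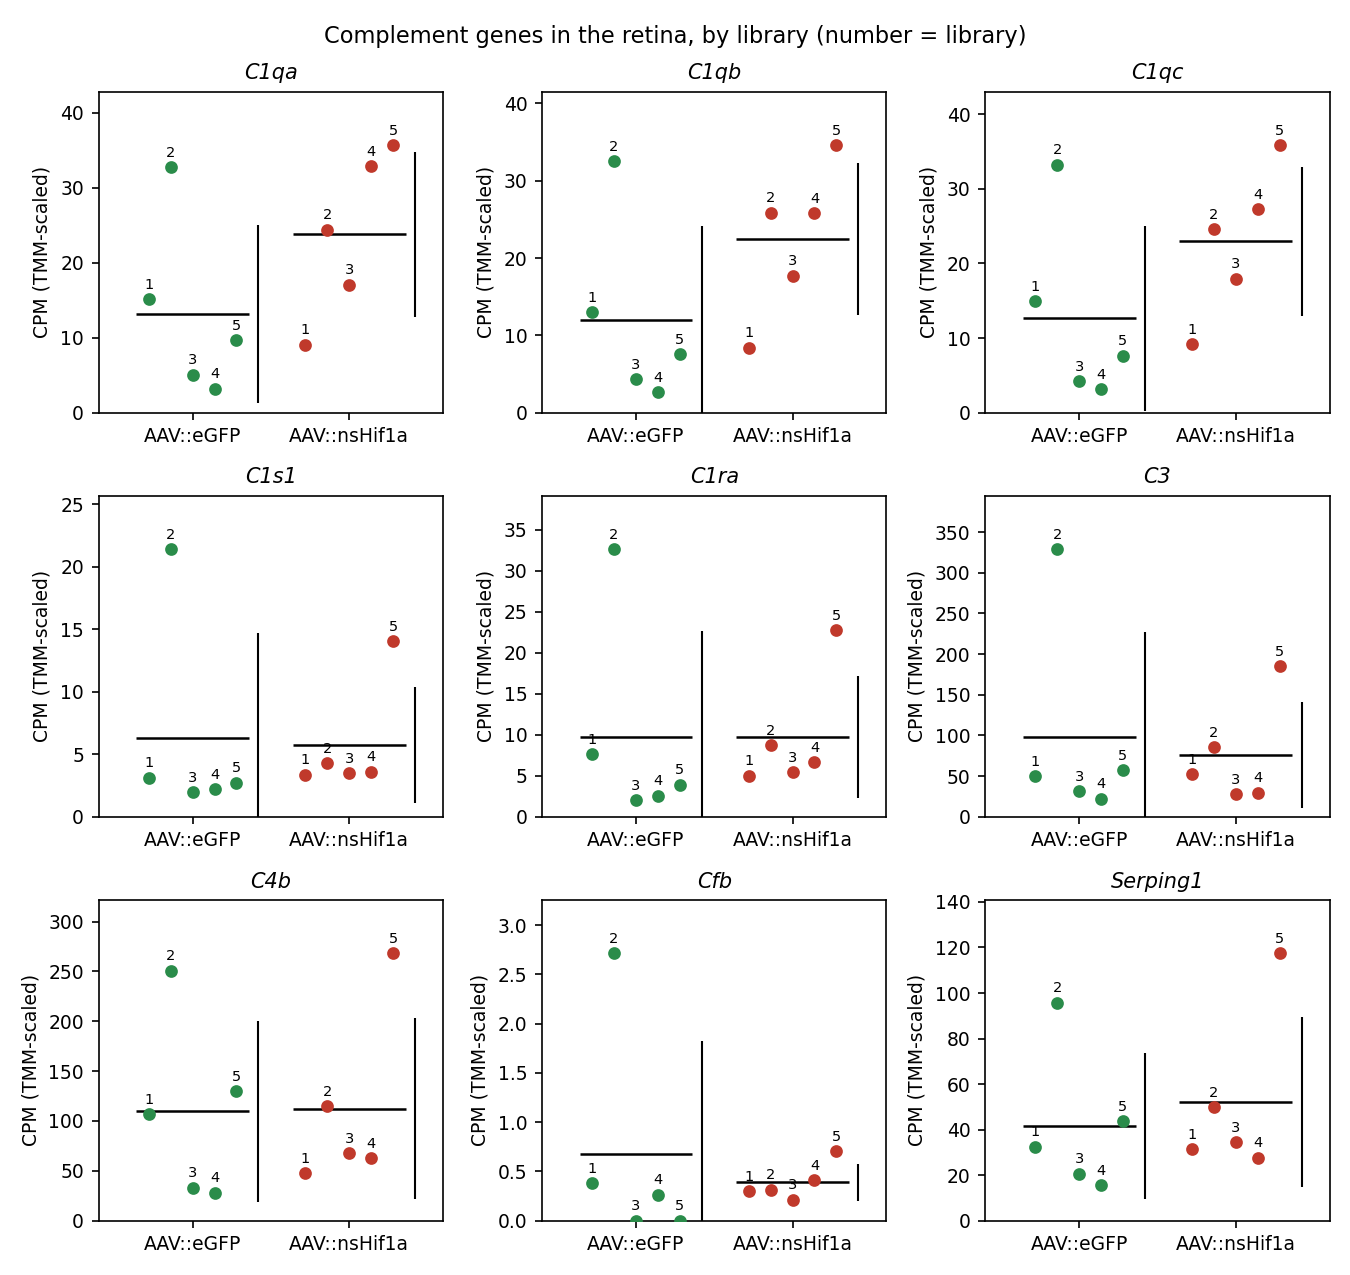
Level of the 9 complement genes in each retinal library, in TMM-scaled CPM on linear axes that start at 0. Points are single libraries with their number, horizontal lines the group means and vertical lines 1 SD to either side (n = 5, cut at 0), and AAV::eGFP library 2 and AAV::nsHif1a library 5 are the highest points of their groups in every panel.

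The C1q genes kept nearly constant proportions to each other in every retina. Over the 10 libraries the ratio of *C1qb* to *C1qa* counts stayed between 0.781 and 1.06, and that of *C1qc* to *C1qa* between 0.789 and 1.05. Over the same libraries the summed level of the 3 genes ran from 8.99 to 106 CPM, an 11.8-fold range. The summed level was 8.99 to 98.5 CPM with AAV::eGFP (median 24.8) and 26.6 to 106 CPM with AAV::*nsHif1a* (median 74.9). C1q protein contains its 3 chains in equal number.

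Microglial genes moved with C1q from library to library. Of 12 microglial markers, 11 were matched and all 11 had higher estimates with AAV::*nsHif1a*, beside 9315 of the 18859 genes tested. Their median log2 fold change was 0.69. At an unadjusted p below 0.05 there were 4 of them, where 21.7% of all genes passed. After adjustment there were none, where 5.79% of all genes passed. The summed level of the 11 markers was 62.6 to 259 CPM with AAV::eGFP and 97.4 to 253 CPM with AAV::*nsHif1a*, and none of the 11 was at 0 in any retina. The median ratio of summed C1q to summed microglial markers was 0.252 with AAV::eGFP (0.144 to 0.381) and 0.376 with AAV::*nsHif1a* (0.273 to 0.446). AAV::eGFP libraries 3, 4 and 5, with at most 3 *Xist* counts, were at 0.170, 0.144 and 0.252. AAV::eGFP libraries 1 and 2 were at 0.307 and 0.381, inside the AAV::*nsHif1a* range. The transfected cells, without detected C1q, held 67.7 to 74.2 CPM of these markers with eGFP and 70.9 to 100 CPM with *nsHif1a*. The list thus also counts RNA from outside microglia, and the ratio is no measure of C1q per microglial cell. The part of microglial content in the C1q levels was not tested, and in whole retina a larger number of microglia and more C1q RNA per cell cannot be told apart. Markers of monocytes and macrophages summed to 2.58 to 30.7 CPM and 8.77 to 33.2 CPM, with 4 of 7 tested and all 4 higher.

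The estimates for C1q depended on which control retinas entered the comparison and on the test. Without AAV::eGFP library 2, *C1qb* (1.91, adjusted p = 0.033) and *C1qc* (1.83, adjusted p = 0.031) passed limma's test, while *C1qa* (1.67, adjusted p = 0.053) did not. Of all genes, 2.77% were called in that comparison. Without AAV::eGFP library 4, the lowest control, the estimates were 0.70 for *C1qa*, 0.87 for *C1qb* and 0.83 for *C1qc* (limma adjusted p = 0.40 to 0.48). With all 10 libraries edgeR's quasi-likelihood test gave 0.86, 0.91 and 0.86 (adjusted p = 0.42 to 0.44), and DESeq2 gave like values (0.86, 0.91 and 0.86, adjusted p = 0.53 to 0.54). Without AAV::eGFP library 2 and AAV::*nsHif1a* library 5 together, chosen after the values were seen, *C1qb* (1.76, adjusted p = 0.046) and *C1qc* (1.68, adjusted p = 0.042) again passed, beside 2.63% of all genes. The libraries with *Xist* counts alone, 2 with AAV::eGFP and 5 with AAV::*nsHif1a*, gave log2 fold changes of −0.09 for *C1qa*, −0.03 for *C1qb* and −0.11 for *C1qc*. AAV::eGFP library 2, the highest control, was 1 of the 2 controls in that set. Within the AAV::eGFP group both libraries with *Xist* counts lay above all 3 others for the C1q genes, at 15.1 CPM or more against 9.64 CPM or less for *C1qa*. The same held for *C1s1*, *C1ra* and *Cfb*, and not for *C3*, *C4b* or *Serping1*. AAV::eGFP library 2 was the highest control for all 9 genes, so the genes are not separate observations. The share of all genes set apart in this way was not counted. For *Cfb* the values were near the detection limit, at 0.382 CPM or more against 0.264 CPM or less.

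**Figure D2:**
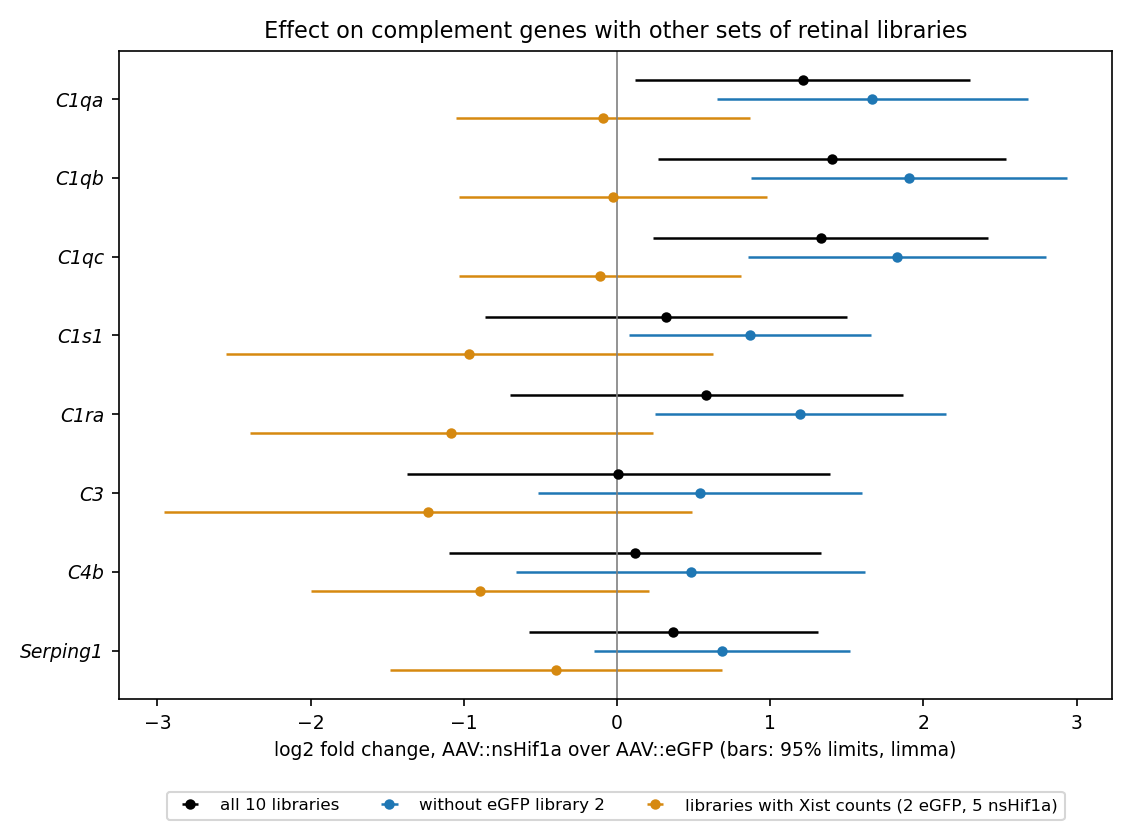
Log2 fold change of the 8 tested genes, AAV::nsHif1a over AAV::eGFP, with 95% limits from limma, for all 10 libraries, without AAV::eGFP library 2 and for the libraries with Xist counts. The C1q estimates lie above 0 with all 10 libraries (1.21 to 1.40), higher without AAV::eGFP library 2, and near 0 in the libraries with Xist counts, where all 8 estimates are below 0. AAV::eGFP libraries 1 and 2 are the controls with Xist counts.

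*C1ra* and *C1s1*, which encode the proteases of the C1 complex, were low in all but 2 retinas. *C1ra* was counted 100, 505, 33, 39 and 52 times with AAV::eGFP and 67, 139, 77, 97 and 355 times with AAV::*nsHif1a*. *C1s1* was counted 41, 331, 32, 33 and 36 times with AAV::eGFP and 45, 68, 49, 53 and 219 times with AAV::*nsHif1a*. AAV::eGFP library 2 and AAV::*nsHif1a* library 5 stood above the others, and the remaining 4 AAV::*nsHif1a* libraries of *C1s1* were at 3.37 to 4.28 CPM against 1.98 to 3.13 CPM in the remaining controls. These sets do not overlap, but they were set apart after the values were seen. Group means were 9.76 ± 12.97 and 9.72 ± 7.43 CPM for *C1ra* and 6.28 ± 8.46 and 5.76 ± 4.65 CPM for *C1s1* (SD, n = 5 each). limma gave log2 fold changes of 0.58 (SE 0.59, adjusted p = 0.61) for *C1ra* and 0.32 (SE 0.54, adjusted p = 0.78) for *C1s1*. Without the 2 highest libraries these were 0.93 (SE 0.31, adjusted p = 0.099) and 0.60 (SE 0.18, adjusted p = 0.067). In the libraries with *Xist* counts, which include both of the highest libraries, the log2 fold changes were −1.08 and −0.96. Part of the reads cannot be assigned to one gene, since 45.4% of the 50-base stretches in *C1ra* transcripts also occur in other genes, mostly its paralog *C1rb*, and 19.3% of those in *C1s1* occur in *C1s2*.

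*C4b* and *C3*, the components that are cleaved and deposited on targets, had the highest mean levels of the genes per transcript length in the control retina, within the spread of *Serping1*. *C4b* was counted 1401, 3884, 536, 426 and 1726 times with AAV::eGFP and 631, 1821, 952, 919 and 4179 times with AAV::*nsHif1a*. *C3* was counted 654, 5087, 508, 333 and 761 times with AAV::eGFP and 695, 1354, 391, 431 and 2882 times with AAV::*nsHif1a*. Both genes spread widely inside each group, and the highest *C3* level of all belonged to a control, AAV::eGFP library 2, at 5.74 times the next control. Group means were 110 ± 90.6 and 112 ± 90.8 CPM for *C4b* and 97.9 ± 130 and 75.9 ± 65.2 CPM for *C3* (SD, n = 5 each). The log2 fold change from limma was 0.12 for *C4b* (SE 0.56, limits −1.10 and 1.33, adjusted p = 0.93) and 0.0074 for *C3* (SE 0.64, limits −1.37 and 1.39, adjusted p = 0.997). These limits are wide in both directions and do not show that either gene was at the same level in both groups. *C4a*, the paralog of *C4b*, shares 28.6% of the 50-base stretches of *C4b* transcripts, and *C4b* had 5.41 to 8.599 times its counts over the 10 retinas.

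*Serping1*, the inhibitor of C1r and C1s, was counted 424, 1482, 333, 235 and 581 times with AAV::eGFP and 419, 791, 485, 406 and 1830 times with AAV::*nsHif1a*. Its means were 41.6 ± 32.2 and 52.1 ± 37.4 CPM (SD, n = 5 each), with a log2 fold change of 0.37 (SE 0.43, limma adjusted p = 0.67). *Cfb* was near the detection limit, with 5, 42, 0, 4 and 0 counts with AAV::eGFP and 4, 5, 3, 6 and 11 counts with AAV::*nsHif1a*. It did not pass the filter on low counts, and an exact two-sided permutation test of its CPM gave p = 0.94 (n = 5 each). Most of its control counts came from AAV::eGFP library 2. *Cfb* values are uncertain, since 57.3% of the 50-base stretches in its transcripts also belong to the overlapping gene model *Gm20547*, which was counted 0 times in every library.

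Thus 8 of the 9 genes entered the test in the retina, and 0 were called at an adjusted p below 0.05 and an absolute log2 fold change above 0.5, where 1.99% of the 18859 genes tested were called. At an unadjusted p below 0.05 there were 3, all of them C1q genes, where 21.7% of all genes passed. The estimates of the 8 genes were all 0 or above, with a median of 0.48, beside 9315 of 18859 genes and a median of −0.002 over all genes tested. This count moved with the libraries, since all 8 estimates were negative among those with *Xist* counts. The controls in that set were AAV::eGFP libraries 1 and 2, and library 2 was the highest of its group for every gene. On a scale per transcript length, the means in AAV::eGFP retinas were 19.5 ± 16.1 RPKM for *C4b*, 18.9 ± 25.1 for *C3*, 15.3 ± 11.8 for *Serping1*, 8.17 ± 7.38 for *C1qa*, 5.92 ± 5.81 for *C1qc*, 3.27 ± 4.35 for *C1ra*, 1.92 ± 1.94 for *C1qb*, 1.89 ± 2.54 for *C1s1* and 0.201 ± 0.345 for *Cfb* (SD, n = 5). Neighbours in this order did not differ beyond their spread. The position of *C1qb* reflects an annotated exon length of 6246 bases against 1610 for *C1qa*, at similar counts.

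The 8 complement genes tested in the retina varied together between libraries once the group means were removed. Residual log2 levels of the C1q genes correlated at 0.991 to 0.996 with each other, and those of *C1s1* at 0.963 with *C1ra*, of *C4b* at 0.966 with *Serping1* and of *C3* at 0.954 with *Serping1* (Pearson r, 10 libraries). Between a C1q gene and one of the other genes the values ran from 0.737, for *C1qa* and *C3*, to 0.915, for *C1qc* and *C1ra*. All of these were below the values among the C1q genes. All 8 genes share the high libraries, AAV::eGFP 2 and AAV::*nsHif1a* 5, and the correlations are given as descriptions. Among the 18858 other tested genes, the 3 closest to *C1qa* were *Cx3cr1*, the fractalkine receptor of microglia, at 0.997, the integrin gene *Itgax* at 0.993 and *C1qb*. *C1qb* was closest to *C1qc*, *Cx3cr1* and *C1qa*, and *C1qc* to *C1qb*, *Cx3cr1* and *Itgb2*. For *C4b* they were *C4a* at 0.992, *Ifi30* at 0.975 and *Trim30d* at 0.974, and for *Serping1* *C4a* at 0.972, *Ifi30* at 0.971 and *C4b*. For *C1s1* they were *C1rb* at 0.982, *C1ra* and *Gypc*. *C1ra* was closest to the antigen transporter gene *Tap2* at 0.969, *Iigp1c* and *Rassf2*, and *C3* to *Gm10156* at 0.963, *Vxn* and *Serping1*.

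**Figure D3:**
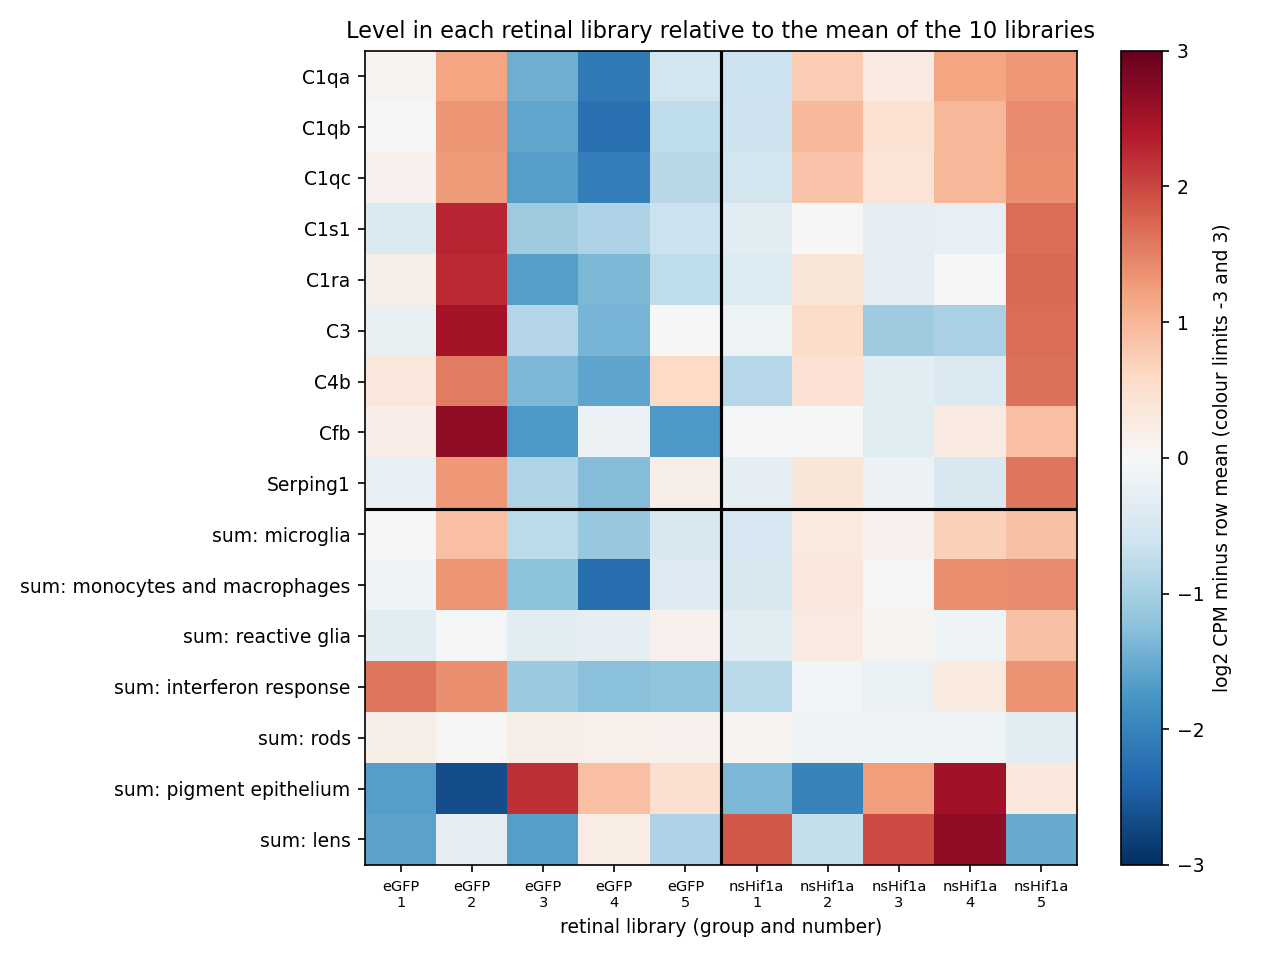
Level of the 9 genes and summed level of 7 marker lists in each retinal library, as log2 CPM minus the mean of the row over the 10 libraries. Rows of the C1q genes and of the microglial sum are alike, AAV::eGFP library 2 and AAV::nsHif1a library 5 are high in all 9 gene rows, and the interferon sum is high in AAV::eGFP libraries 1 and 2 (920 and 805 CPM) and in AAV::nsHif1a library 5 (769 CPM).

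Interferon response genes also stood high in AAV::eGFP library 2 and AAV::*nsHif1a* library 5. The summed level of 14 such genes was 920, 805, 141, 128 and 132 CPM in AAV::eGFP libraries 1 to 5 and 175, 286, 266, 375 and 769 CPM in AAV::*nsHif1a* libraries 1 to 5. AAV::eGFP library 1, with the highest sum, was the next control below library 2 for the C1q genes, *C1s1*, *C1ra* and *Cfb*. For *C3*, *C4b* and *Serping1*, AAV::eGFP library 5 also lay above it. Library 1 had *C1qa* at 15.1 CPM against 32.8 CPM in library 2, and *C3* at 49.98 CPM against 329 CPM. Of the 14 genes, 11 had higher estimates with AAV::*nsHif1a* and none had an adjusted p below 0.05, where 5.79% of all genes did. The part of the interferon response in the complement levels was not tested.

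A few genes of the acute-phase and reactive glia lists passed the test in the same retinas, where 1.99% of all genes were called. Of 13 acute-phase regulators, 10 were tested, all 10 had higher estimates, and *Stat3* (log2 fold change 0.69, limma adjusted p = 0.0081) and *Cebpd* (1.67, adjusted p = 0.017), which encode factors that act in the acute-phase response, rose. Of 10 reactive glia genes all 10 had higher estimates and 2 rose, the endothelin gene *Edn2*, also known as an injury signal from photoreceptors (1.92, adjusted p = 0.0033) and the cytokine feedback inhibitor *Socs3* (1.18, adjusted p = 0.021). The summed level of the 10 genes overlapped, at 798 to 1092 CPM with AAV::eGFP and 799 to 1815 CPM with AAV::*nsHif1a*. It was highest in AAV::*nsHif1a* library 5, where the next library had 1192 CPM. *Cebpd* was counted 113 to 302 times with AAV::eGFP and 272 to 1189 times with AAV::*nsHif1a*. *C3* and *C1s1* did not pass the test in these libraries.

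Of 47 other complement genes, 22 were tested in the retina, with 14 higher and 8 lower estimates and a median log2 fold change of 0.09. By adjusted p alone 1 passed, where 5.79% of all genes did, and 0 also passed the fold threshold. The gene was *Vtn*, which encodes vitronectin, an inhibitor of the terminal complex. It was counted 7517, 8653, 8814, 8112 and 7101 times with AAV::eGFP and 6775, 6928, 6111, 6443 and 6430 times with AAV::*nsHif1a*. The groups did not overlap, and *Vtn* fell by 0.31 on the log2 scale (SE 0.05, limma adjusted p = 0.0031). All 8 rod markers had lower estimates in the same retinas, 4 of them at an adjusted p below 0.05, and their part in the level of *Vtn* was not tested.

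Among the other genes of the classical pathway, *C1rl* (0.57), *C1rb* (0.37) and *C4a* (0.01) had estimates above 0 and *C2* (−0.26) below, with adjusted p-values of 0.27 to 0.99 in limma. The receptors *Itgam*, *Itgax* and *Itgb2*, which form the integrins that bind fragments of C3, and *C3ar1*, the receptor of C3a, had estimates of 1.13, 2.01, 1.37 and 0.49, and none passed (adjusted p = 0.20 to 0.65). *Itgb2* was counted 38, 150, 12, 7 and 16 times with AAV::eGFP and 22, 77, 51, 72 and 104 times with AAV::*nsHif1a*, which overlapped in the manner of the C1q genes. Membrane regulators that protect cells from complement had small estimates, from −0.23 for *Cd59b* to 0.18 for *Cd55*. Genes of the terminal pathway, the lectin recognition proteins and factor D (*Cfd*) were at or near 0, except *C8g* with 6 to 16 counts.

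In 661W cells the 3 C1q genes had 0 counts in all 8 libraries, which allows at most 0.168 to 0.223 CPM by 3 counts per library. *C1ra* was counted 925, 749, 799 and 578 times with eGFP and 1441, 1148, 726 and 719 times with *nsHif1a*. *C1s1* was counted 158, 130, 129 and 93 times with eGFP and 291, 260, 87 and 99 times with *nsHif1a*. Scaled to library size, *nsHif1a* libraries 1 and 2 lay above all eGFP libraries and *nsHif1a* libraries 3 and 4 below them for both proteases. The means were 48.6 ± 5.10 and 61.7 ± 22.1 CPM for *C1ra* and 8.12 ± 1.09 and 11.4 ± 6.89 CPM for *C1s1* (SD, n = 4 each). limma gave log2 fold changes of 0.30 (SE 0.21, adjusted p = 0.45) and 0.30 (SE 0.37, adjusted p = 0.68).

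*C4b* and *C3* were low in the cells. *C4b* was counted 66, 52, 40 and 30 times with eGFP and 90, 76, 33 and 37 times with *nsHif1a* (log2 fold change 0.20, SE 0.35, limma adjusted p = 0.79). *C3* was counted 63, 72, 60 and 39 times with eGFP and 50, 24, 58 and 45 times with *nsHif1a*. Its CPM was 3.73 ± 0.722 with eGFP and 2.64 ± 0.708 with *nsHif1a* (SD, n = 4 each), a log2 fold change of −0.53 (SE 0.23) with an adjusted p of 0.24 in limma. *Cfb* with 5 to 10 and 6 to 21 counts and *Serping1* with 4 to 11 and 1 to 9 counts did not pass the filter. On the scale per length, eGFP cells held 16.3 ± 1.71 RPKM of *C1ra*, 2.44 ± 0.327 of *C1s1*, 0.720 ± 0.140 of *C3*, 0.529 ± 0.146 of *C4b*, 0.147 ± 0.0699 of *Serping1* and 0.128 ± 0.0360 of *Cfb* (SD, n = 4). The steps from *C1ra* to *C1s1* and from *C1s1* to *C3* were larger than the spread, and those from *C3* to *C4b* and from *Serping1* to *Cfb* were not.

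**Figure D4:**
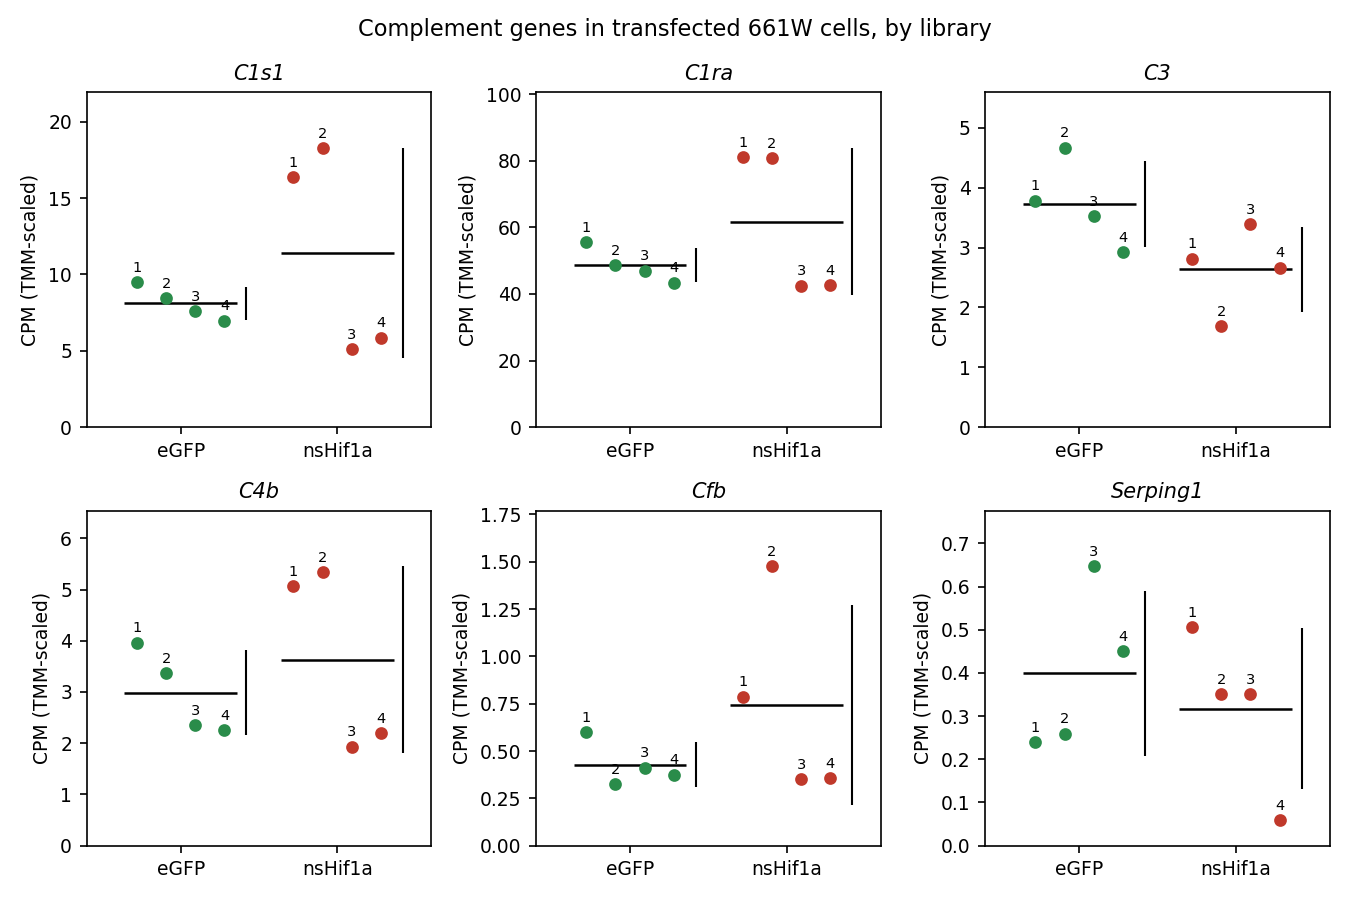
Level of the 6 complement genes detected in 661W cells in each library, in TMM-scaled CPM on linear axes that start at 0. Points are single libraries with their number, horizontal lines the group means and vertical lines 1 SD to either side (n = 4), and nsHif1a libraries 1 and 2 lie above nsHif1a libraries 3 and 4 for C1s1, C1ra, C4b and Cfb.

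Of the 9 genes, 4 were tested in the cells and 0 were called, where 1.27% of the 15962 genes tested were called. At an unadjusted p below 0.05 there was 1, *C3*, where 20.7% of all genes passed. The 4 *nsHif1a* libraries did not act as a single group for *C1s1* and *C1ra*. The ratio of mean CPM between *nsHif1a* and eGFP was 1.93 in libraries 1 and 2 and 0.752 in libraries 3 and 4 for *C1s1*, 1.55 and 0.941 for *C1ra*, 1.42 and 0.895 for *C4b*, and 0.532 and 0.938 for *C3*. At low counts it was 2.45 and 0.898 for *Cfb* and 1.72 and 0.374 for *Serping1*. *Hif1a* was at 1222 and 1242 CPM in *nsHif1a* libraries 1 and 2 and at 1954 and 1825 CPM in libraries 3 and 4. The labels do not give these pairs as groups, and the ratios are given as a description. Without *nsHif1a* library 3, limma called *C1s1* (0.99, adjusted p = 0.0077), *C1ra* (0.68, adjusted p = 0.0029), *C4b* (0.75, adjusted p = 0.038) and *Cfb* (1.18, adjusted p = 0.048) higher and *C3* (−0.72, adjusted p = 0.044) lower, but 11.6% of all genes were then called. Without *nsHif1a* library 4 the same 5 genes were called, again beside 11.6% of all genes.

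Among the other complement genes 16 of 47 were tested in the cells, with 12 higher estimates, a median log2 fold change of 0.22 and 0 with an adjusted p below 0.05 in limma, where 2.49% of all genes passed. By unadjusted p below 0.05 there was 1, *C2*, with 402 to 542 counts with eGFP and 509 to 731 with *nsHif1a* (0.26, adjusted p = 0.18). *Masp1*, a protease of the lectin pathway, was counted 322 to 492 and 465 to 646 times, and *C3ar1* 1105 to 1437 and 664 to 1483 times. Interferon response genes were high in the cells, all 14 had higher estimates with *nsHif1a*, and 3 were called, where 1.27% of all genes were, among them *Stat2* (0.56, adjusted p = 0.043) and *Ifit3* (0.66, adjusted p = 0.039). Their summed level was 5136 to 5479 CPM with eGFP, 9095 and 9014 CPM in *nsHif1a* libraries 1 and 2, and 5951 and 6367 CPM in *nsHif1a* libraries 3 and 4. The cytokine gene *Il6* rose as well (1.27, adjusted p = 0.014). Of 9 photoreceptor markers, 3 passed the filter on low counts in the cells. *Crx*, *Rcvrn* and *Arr3* had at most 2 counts in any library of the cells while *Otx2* had 335 to 608, so these examples bear out the photoreceptor-like label only in part. The microglial markers *Trem2*, *Tyrobp* and *Siglech* had 0 counts in all 8 libraries, whereas *Tmem119* and *Cd68* were detected.

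The effects in retina and cells were compared for the 4 genes tested in both. The log2 effect in the retina minus that in the cells was 0.44 (SE 0.63) for *C1ra*, 0.27 (SE 0.70) for *C1s1*, 0.14 (SE 2.02) for *C4b* and 0.53 (SE 2.07) for *C3*, from limma's interaction term in a joint fit of all 18 libraries. None had an adjusted p below 0.05 (0.81 to 0.99), where 2.33% of 20999 genes did. The 95% limits were −0.89 and 1.77 for *C1ra* and −1.20 and 1.73 for *C1s1*, and wider for *C4b* (−4.10 and 4.38) and *C3* (−3.81 and 4.86). Values of the joint fit can depart from those of the separate fits. There *C4b* had 0.12 (SE 0.56) in the retina and 0.20 (SE 0.35) in the cells, thus the lower estimate in the retina. For *C3* the separate SEs were 0.64 and 0.23. The joint values of *C4b* and *C3* are therefore uncertain even in sign. The experiments also differ in promoter, delivery and time, which cannot be told apart from the tissue.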

How the data were processed

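Per the study's methods, the authors prepared poly(A) libraries with a stranded kit, aligned paired reads to GRCm39 with Rsubread and deposited raw counts per gene from featureCounts (antisense strand, gencode M36 basic annotation). The 9 genes and the companion lists were chosen with earlier results of these data known. Companion genes were named if their adjusted p was below 0.05, and marker lists by counts with a few examples. Genes were kept by edgeR's filterByExpr (version 4.0.16) at a minimum count of 10, whereas the study names a threshold set from library size, and were then, with the functions the study names, scaled by TMM and tested with limma 3.58.1 (voom with sample quality weights, R 4.3.3). p-values were adjusted over all genes tested by the Benjamini-Hochberg method, and a gene was called at an adjusted p below 0.05 and an absolute log2 fold change above 0.5. Log2 levels used a prior count of 2. Alternatives used edgeR's quasi-likelihood test, DESeq2 1.42.0, other filters and size factors, covariates, and the omission of libraries. The procedure was tested on simulated data. In the cells, libraries with the same replicate number deviated weakly together from their group means (r = 0.227 to 0.269 in the 4 pairs). The labels state no pairing, and the p-values given for the cells are from the fit without it. With the replicate number as a block limma gave 0.28 for *C1ra* (adjusted p = 0.31) and 0.40 for *C1s1* (adjusted p = 0.42). It gave 0.23 for *C4b* (adjusted p = 0.51) and −0.44 for *C3* (adjusted p = 0.32). Positions were taken from gencode M39, where 78168 of 78239 genes matched. Values of some single genes of the companion and marker lists are not reported here.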

Additional observations from a re-analysis of the deposited data

Results flagged for a closer look

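In 32 tests for a single library far from its group (Dixon's criterion, of which chance flags about 5%), 2 were flagged, both for *C1s1* in the retina. This number is near that given by chance. The tests are also not independent, since AAV::eGFP library 2 and AAV::*nsHif1a* library 5 were the highest of their groups for every gene. The gap from AAV::eGFP library 2 to the next library was 0.813 of the log2 range of the group, and the gap from AAV::*nsHif1a* library 5 was 0.835, above the critical value of 0.71 for 5 libraries.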

How the results depend on the processing

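None of the genes was called in either experiment except where libraries were left out, which gave 0 to 2 of the 9 genes in the retina, 2 with AAV::eGFP library 2 and AAV::*nsHif1a* library 5 both left out, and 0 to 5 in the cells. *Vtn* kept its adjusted p below 0.05 in each setting. Over all genes, the number called in the retina (375) was 200 with the replicate number as a block, 221 with the *Xist* class as a covariate, 140 with the libraries with *Xist* counts alone, 1091 without the fold threshold, and 219 to 528 without single libraries. In the cells (203) it was 366 with DESeq2, 107 with the replicate block, 592 with a term for replicates 1 and 2 or 3 and 4, 397 without the fold threshold, and 84 to 1878 without single libraries. The block changed no call of the 9 genes. In the retina same-numbered libraries did not deviate together (r = −0.148 to 0.138), so the block there is only a value.

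Signs turned, relative to the limma fit of all libraries, for estimates that passed neither there nor in the other setting, and the cause was not tested. AAV::eGFP library 2, the highest control, is among the libraries with *Xist* counts. With the *Xist* class as a covariate, and in the libraries with *Xist* counts alone, the log2 fold changes in the retina were −0.099 and −0.089 for *C1qa*, −0.031 and −0.026 for *C1qb*, −0.12 and −0.11 for *C1qc*, −1.09 and −1.08 for *C1ra*, −0.97 and −0.96 for *C1s1*, −1.23 and −1.23 for *C3*, −0.90 and −0.89 for *C4b*, and −0.40 and −0.40 for *Serping1*. With edgeR, DESeq2 and the block they were −0.0042, −0.0037 and −0.087 for *C1ra*, −0.13, −0.12 and −0.21 for *C1s1*, and −0.37, −0.37 and −0.17 for *C3*, which was −0.012 with a minimum count of 30. The difference between retina and cells was −0.34 for *C1ra* with edgeR and −1.24 with the *Xist* class. It was −0.091 for *C1s1* with the block, −0.60 with edgeR and −1.02 with the *Xist* class, and −0.083, −0.22 and −0.89 for *C4b*. For *C3* it was −0.73 with the *Xist* class. Without single libraries the retinal estimate ran from −0.32 to 0.48 for *C4b* and from −0.42 to 0.54 for *C3*. In the cells it ran from −0.14 to 0.68 for *C1ra*, −0.47 to 0.99 for *C1s1* and −0.42 to 0.75 for *C4b*. The upper ends, without *nsHif1a* library 3 or 4, were called, and the lower ends were not. The difference ran from −0.044 to 1.02, −0.60 to 0.80 and −0.55 to 0.57 for these 3 genes. Depth limits *Cfb* in both experiments and *Serping1* in the cells, and the overlap with *Gm20547* also makes the *Cfb* counts uncertain.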
